A study of Mus musculus with 16 samples.

Results

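The genes described here are 43 genes of DNA replication and cell division, taken by symbol from the table of read counts, which held 15871 rows. All 43 had a row, and all 43 were among the 13527 rows with enough counts to be tested. They were sorted by textbook role into 18 replication genes, 20 mitosis genes, the 3 cyclins of the G1 to S step (Ccnd1, Ccne1 and Ccne2), and 2 others, Hmgb2 and Stmn1. The cells were wild-type (WT) peritoneal macrophages of C57BL/6 mice aged 8 weeks, drawn into the abdominal cavity by an injection of 6% soluble starch and then cultured. All 4 groups were treated for 48 h, with 4 libraries in each. L_C was the low glucose control with 27.5 mM mannitol, an osmotic control, and L_O received oxidised low-density lipoprotein (ox-LDL), a modified lipoprotein that macrophages take up to become foam cells. H_C received 33 mmol/L glucose, and H_O received 33 mmol/L glucose and ox-LDL. For ox-LDL the labels write 50 mg/ml, and the unit is in doubt, the glucose level of the low glucose medium is not stated, and the L_O label does not name mannitol. The labels do not say whether the libraries of a group came from separate animals or cultures, so a p-value here measures the spread between libraries only, which may be technical.

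A cell that is about to divide loads the ring-shaped MCM helicase onto its DNA, activates it with cyclin-dependent kinases, copies the DNA in S phase, and then separates the copies in mitosis under the control of cyclin B and Cdk1. Transcription of these genes is timed. Replication genes are switched on by E2F factors as S phase begins, and mitosis genes are switched on later through the cell cycle homology region (CHR) and CCAAT boxes, which bind the DREAM and MuvB complexes and NF-Y. Tissue macrophages can divide in place under growth factors such as CSF1 and IL-4, whereas elicited macrophages divide little in culture without added growth factor.

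The timing elements are written in the promoters, so the sequence before the start site is shown for 3 replication and 3 mitosis genes of those with the most matches in their class. Mcm7 had 5 matches, as many as Mcm3, Mcm5 and Mcm6, and was left out as the last by alphabet. RefSeq windows of 300 bases, from 250 before to 50 after the start (GRCm38.p6), were at hand for 35 of the 43 genes, as 40 promoters. None was used for Ccne2, Stmn1, Aurkb, Mcm4, Tpx2, Ccnd1, Ccna2 or Gins2. The motifs searched on both strands were E2F sites of the forms TTTCCCGC, TTTCGCGC, TTTGCCGC and TTTGGCGC, the CHR as TTTGAA, and the CCAAT box as CCAAT. Capitals mark every match, and neighbouring matches can overlap. A CHR on the other strand reads TTCAAA and a CCAAT box ATTGG. Each line gives the 250 bases before the start, 5′ to 3′ in the direction of transcription.
Mcm3 (chr1:20820313-20820562, minus strand): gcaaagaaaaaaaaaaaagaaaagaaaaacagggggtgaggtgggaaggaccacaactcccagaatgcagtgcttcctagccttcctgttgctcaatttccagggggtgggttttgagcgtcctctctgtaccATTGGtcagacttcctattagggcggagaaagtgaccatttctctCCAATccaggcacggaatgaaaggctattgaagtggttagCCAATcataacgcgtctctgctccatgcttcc
Mcm5 (chr8:75109259-75109508, plus strand): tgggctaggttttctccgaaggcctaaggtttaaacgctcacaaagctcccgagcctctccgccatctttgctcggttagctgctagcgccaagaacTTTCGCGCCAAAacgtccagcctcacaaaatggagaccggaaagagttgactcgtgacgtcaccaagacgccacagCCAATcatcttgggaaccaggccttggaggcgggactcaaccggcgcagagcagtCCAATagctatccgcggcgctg
Mcm6 (chr1:128359706-128359955, minus strand): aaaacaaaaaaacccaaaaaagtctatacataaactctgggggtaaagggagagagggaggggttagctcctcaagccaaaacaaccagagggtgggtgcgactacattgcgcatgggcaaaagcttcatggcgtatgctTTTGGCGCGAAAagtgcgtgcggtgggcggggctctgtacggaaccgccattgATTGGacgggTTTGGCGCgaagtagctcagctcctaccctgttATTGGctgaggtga
Top2a (chr11:99024190-99024439, minus strand): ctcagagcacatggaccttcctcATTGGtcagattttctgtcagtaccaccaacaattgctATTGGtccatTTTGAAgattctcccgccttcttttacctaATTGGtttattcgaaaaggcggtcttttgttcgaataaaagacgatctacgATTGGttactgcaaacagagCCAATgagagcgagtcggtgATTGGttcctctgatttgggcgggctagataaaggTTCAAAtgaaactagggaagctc
Ube2c (chr2:164769679-164769928, plus strand): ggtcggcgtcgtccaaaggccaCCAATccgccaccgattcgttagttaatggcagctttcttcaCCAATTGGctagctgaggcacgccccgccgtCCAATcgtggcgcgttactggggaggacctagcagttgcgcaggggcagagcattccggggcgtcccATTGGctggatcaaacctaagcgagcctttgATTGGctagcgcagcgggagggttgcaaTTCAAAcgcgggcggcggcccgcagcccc
Cdk1 (chr10:69352913-69353162, minus strand): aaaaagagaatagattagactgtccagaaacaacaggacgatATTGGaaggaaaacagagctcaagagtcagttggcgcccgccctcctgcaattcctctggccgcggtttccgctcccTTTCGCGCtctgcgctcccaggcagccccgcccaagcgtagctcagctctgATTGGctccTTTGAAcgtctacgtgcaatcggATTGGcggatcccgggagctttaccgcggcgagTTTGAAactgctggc

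The Mcm5 and Mcm6 sequences each hold overlapping E2F sites read from opposite strands, and those of Top2a, Ube2c and Cdk1 hold a CHR near several CCAAT boxes. Mcm3 shows CCAAT boxes only, because its 2 E2F matches lie after the start, outside the stretch printed. Over the full windows, an E2F form was found in 8 of 21 replication promoters (38.1%), in 1 of 17 mitosis promoters (5.88%), in 3.85% of the promoters of all tested genes and in 2.26% of all promoters of the table. The CHR went the other way, with 12 of 17 mitosis promoters (70.6%), 2 of 21 replication promoters (9.52%), 12.4% of promoters of tested genes and 17.9% of all promoters. CCAAT boxes were common in both classes, in 12 of 21 replication promoters (57.1%) and 15 of 17 mitosis promoters (88.2%), against 37.8% for tested genes and 37.4% for all promoters. Both a CHR and a CCAAT box were present in the same 12 mitosis promoters, in 1 replication promoter, and in 5.11% of promoters of tested genes and 6.95% of all promoters. These shares describe letters in a window and were not tested.

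**Figure D1:**
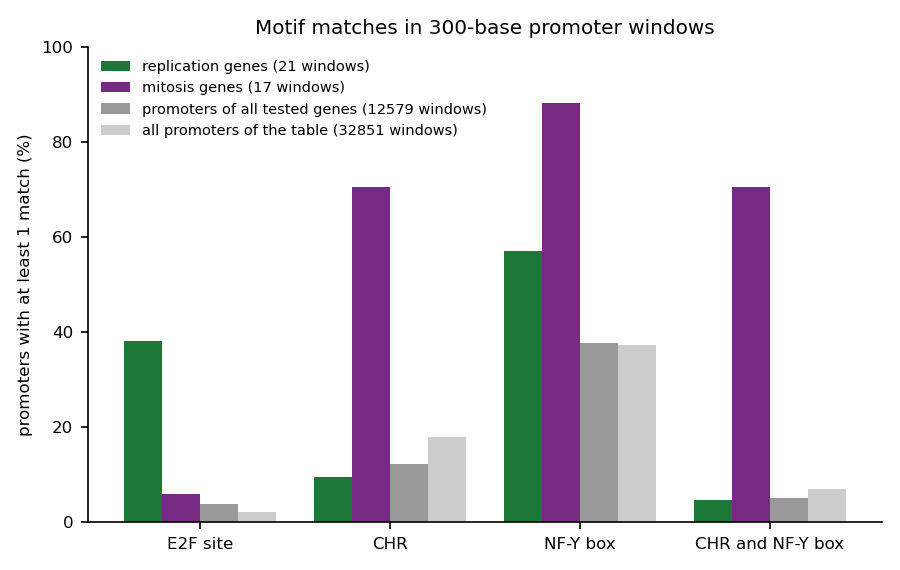
Percentage of promoter windows with at least 1 match on either strand, for replication genes, mitosis genes, all tested genes and all windows of the RefSeq table, with the number of windows in the legend; the CCAAT box is drawn as the NF-Y box. The E2F bars are highest for replication genes (38.1%) and the CHR bars for mitosis genes (70.6%).

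Levels are given as CPM, the count of a gene relative to its library's total after TMM scaling. Library totals lay between 32596640 and 41712885. The 18 replication genes had a median level of 15.1 CPM and the 20 mitosis genes 3.70 CPM, against 18.5 CPM over all tested rows. Only 2 mitosis genes, Mki67 and Top2a, reached 10 CPM, whereas 12 replication genes did. Per kilobase of exon, Pcna, the sliding clamp of the DNA polymerases, stood at 73.3 CPM per kb and far above the next, Mcm3, at 10.5 CPM per kb. Cdt1, which helps to load the MCM ring, stood at 8.88 CPM per kb. Among the mitosis genes, Mki67 was highest at 2.55 CPM per kb, followed by Bub1b at 2.13 and Tpx2 at 1.90 CPM per kb. The lowest level of all was that of Cenpf, a kinetochore protein, at 0.106 CPM per kb. Mitosis genes were also noisier: the median coefficient of variation within a group was 19.3% for them and 7.83% for replication genes. The gene with the fewest counts, Ube2c, had 616 over the 16 libraries.

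Several of these genes share sequence with other genes, and the counting method is not known, so their counts are uncertain. Of the 50-base stretches in their exons, 76.7% for Fen1 and 65.4% for Gins2 also occur in transcripts of the overlapping genes Gm10143 and Gse1 or of other genes. The share was 23.4% for Ccnb1 and 19.1% for Pcna, which have processed copies, 23.3% for Mcm7, 21.6% for Ccnd1, 18.9% for Stmn1, 18.7% for Hmgb2, 16% for Ube2c, 15.4% for Uhrf1, 14.4% for Ccne2 and 11.4% for Ccna2.

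One library, L_C replicate 4, stood apart from the rest. Between libraries of a group, the chi-square per degree of freedom of the counts was 93.9 to 97.5 for pairs with it. Every other pair gave 6.48 to 18.5. The fit shares 1 estimate of spread, so this library bears on all comparisons. With it left out, H_O against H_C gave 1964 rows higher and 2001 lower in place of 1406 and 1556. H_O against L_O then gave 749 and 1014 in place of 367 and 459. In L_C replicate 4, 3.71% of the counts were mitochondrial, where the rest of L_C had 1.48% to 1.95%, and Mki67 stood at 36.8 CPM against 17.7 to 18.4 CPM. It was the highest of its group for 9 of 20 mitosis genes and the lowest for 9 of 18 replication genes. H_C replicate 3 was the highest of its group for 12 of 20 mitosis genes, and in it the 6 mesothelial and fibroblast markers summed to 159 CPM, against 32.7 CPM in the lowest H_C library. Without H_C replicate 3, the calls with ox-LDL in high glucose numbered 11 replication and 6 mitosis genes in place of 13 and 5. Over all rows, 1146 were then called higher in place of 1406. Macrophage markers stood far above lymphocyte markers. The 8 macrophage markers summed to between 17216.8 and 20725.9 CPM in every library, most of it from Lyz2, at 13258 to 16810.1 CPM. Single markers among the 8 were called in both directions with ox-LDL at either glucose level. The 5 measured B cell markers stayed at or below 2.36 CPM and the 6 measured T and NK cell markers at or below 9.60 CPM. The single measured eosinophil marker, Siglecf, stood at 14.2 to 20.6 CPM in L_C and 3.69 to 4.98 CPM in L_O, and at 19.5 to 23.6 CPM in H_C and 4.70 to 5.72 CPM in H_O, and was called lower in both ox-LDL comparisons. Markers of large peritoneal macrophages summed to 189 to 232 CPM in L_C and 91.8 to 98.2 CPM in L_O, and to 185 to 204 CPM in H_C and 89.3 to 98.6 CPM in H_O, with 5 of 7 called lower in low glucose and 4 of 7 in high glucose. Markers of small peritoneal macrophages and monocytes summed to 992 to 1066 CPM in L_C and 482 to 527 CPM in L_O, and to 762.2 to 796.7 CPM in H_C and 367 to 407 CPM in H_O. The 6 mesothelial and fibroblast markers summed to 50.6 to 62.9 CPM in L_C and 18.7 to 30.3 CPM in L_O, without overlap. Their sums were 32.7 to 159 CPM in H_C and 30.9 to 79.5 CPM in H_O. None of these 6 markers was called in any of the 4 pairwise comparisons. The part of these shifts in the results below was not tested, and in bulk RNA a change in the number of dividing cells cannot be told apart from a change in RNA per cell.

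The comparisons of L_O with L_C and of H_O with H_C asked what ox-LDL loading changed in low and in high glucose. If L_O had no mannitol, as its label reads, ox-LDL cannot be told apart from the loss of mannitol in L_O against L_C. Glucose could then not be told apart from its osmotic effect in H_O against L_O, and the interaction would carry the same limit. With ox-LDL, 6 of 18 replication and 2 of 20 mitosis genes were higher in low glucose, and 13 of 18 and 5 of 20 were higher in high glucose. In low glucose 9 of the 43 genes were higher (20.9%) and 1, Pcna, was lower, beside 12% of all tested rows called higher and 13.8% called lower. In high glucose 20 of 43 were higher (46.5%) and none lower by edgeR's quasi-likelihood test with Benjamini-Hochberg adjustment, beside 10.4% and 11.5% of all rows. Cdt1 alone of the 43 lay lower at an unadjusted p under 0.05 in the latter comparison, beside 2165 of the 13527 rows. DESeq2 also called none of the 43 lower there. All 9 genes higher in low glucose, Mcm2, Mcm3, Mcm5, Mcm6, Rrm2, Uhrf1, Ccnb1, Aurkb and Ccne2, were also higher in high glucose. The median log2 fold change over the 43 genes was 0.23 in low and 0.43 in high glucose, whereas over all tested rows it was 0.000925 and 0.00894. The libraries of the groups did not overlap, with ox-LDL higher, for 12 of the 43 genes in low glucose and 17 in high glucose, beside 12.2% and 14.8% of all rows. With no scaling beyond library totals the median of all rows moved to 0.0858 and 0.0738, and 15 genes were then called higher in low glucose, together with 2857 of the 13527 rows in place of 1623.

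**Figure D2:**
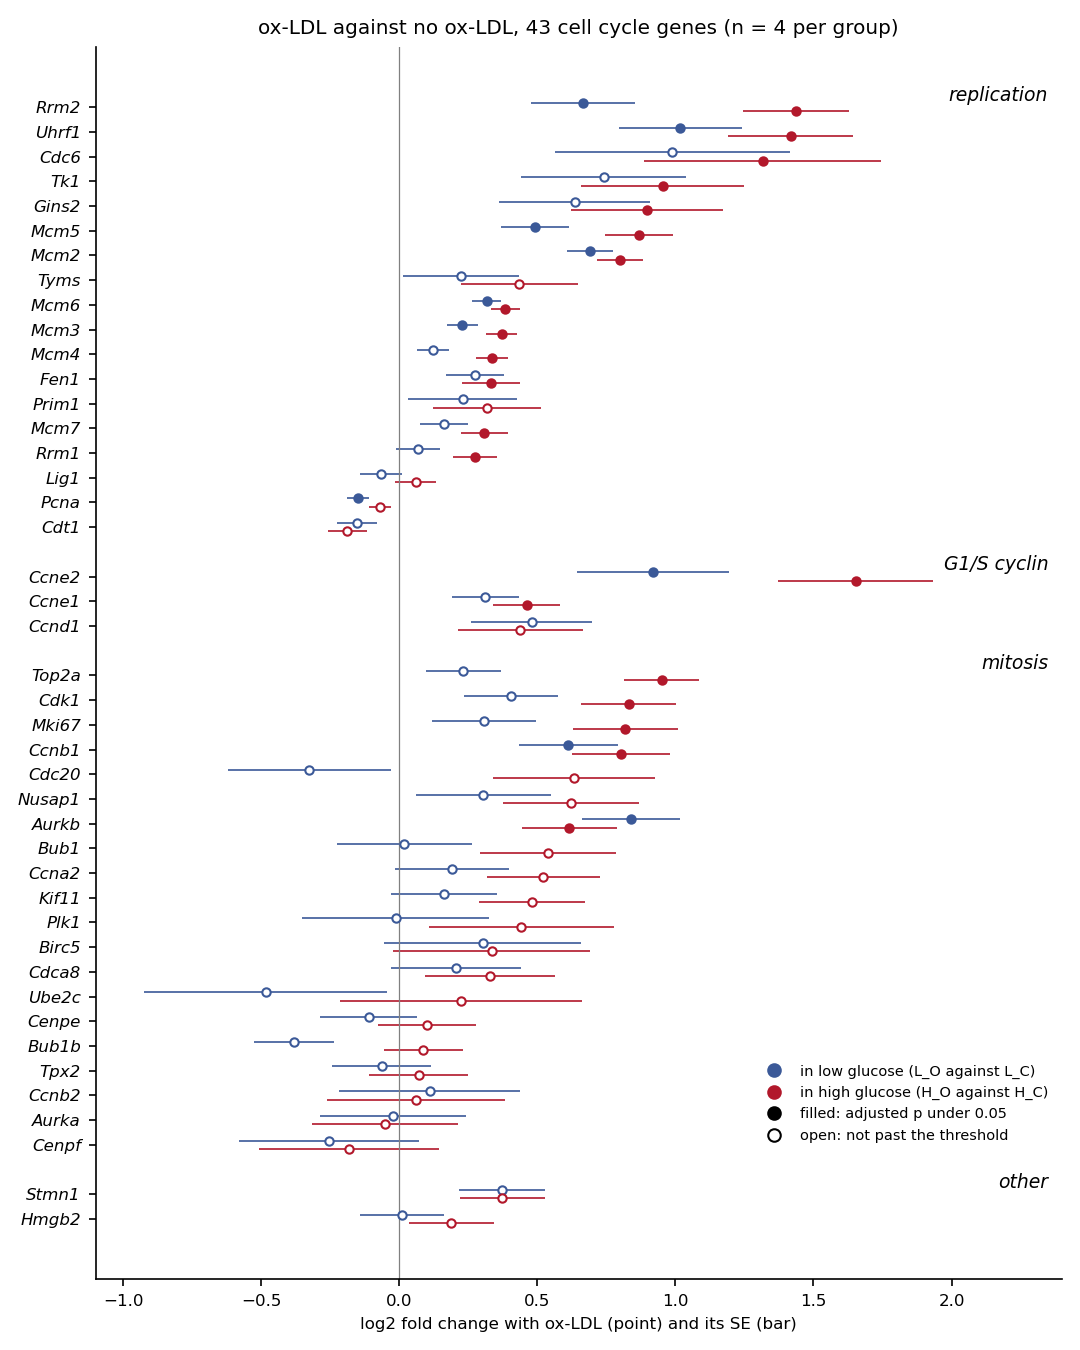
Log2 fold change with ox-LDL for each of the 43 genes, in low glucose (L_O against L_C) and in high glucose (H_O against H_C), with bars of 1 standard error and filled points for adjusted p under 0.05. In low glucose 9 points are called to the right and Pcna to the left of 0, and in high glucose 20 are called, all to the right.

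The subunits of the MCM helicase, which opens the DNA ahead of the polymerases, were higher with ox-LDL. Mcm2 (chromosome 6, 88883474 to 88898780) stood at 12.1, 13.6, 13.7 and 10.9 CPM in L_C and at 19, 20, 21.5 and 20.7 CPM in L_O. In high glucose it stood at 11.9, 13.5, 12.1 and 12.2 CPM in H_C and at 22.1, 19.8, 22.5 and 21.9 CPM in H_O. Every library with ox-LDL was above every library without it, at either glucose level. The log2 fold change was 0.69 ± 0.08 (SE, adjusted p = 4.86e-06) in low glucose and 0.80 ± 0.08 (adjusted p = 8.52e-07) in high glucose. Mcm6 (chromosome 1, 128331590 to 128359664) was more abundant and just as even, at 37.3, 34, 33.1 and 33.7 CPM in L_C and 40.5, 43.5, 42.8 and 45.3 CPM in L_O. It read 36.3, 35.7, 34.4 and 33.8 CPM in H_C and 45.8, 45.3, 46.2 and 45.8 CPM in H_O. Its groups did not overlap either, with log2 fold changes of 0.32 ± 0.05 (adjusted p = 0.00018) and 0.38 ± 0.05 (adjusted p = 2.64e-05). Mcm5 (chromosome 8, 75109569 to 75128439) read 10.6, 9.23, 10.0 and 8.00 CPM in L_C and 12.8, 14.8, 14.6 and 11 CPM in L_O. In H_C it fell between 6.25 and 8.58 CPM and in H_O between 12.6 and 15.1 CPM. Again no library of one group reached the other, and the log2 fold changes were 0.49 ± 0.12 (adjusted p = 0.00554) and 0.87 ± 0.12 (adjusted p = 3.64e-05).

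The other MCM subunits moved less in low glucose, and in high glucose their changes lay near the 0.38 ± 0.05 of Mcm6. This ranking was not tested. Mcm3 rose by 0.23 ± 0.06 on the log2 scale in low glucose (adjusted p = 0.0053) and by 0.37 ± 0.06 in high glucose (adjusted p = 7.21e-05). Mcm4 and Mcm7 were called only in high glucose, with log2 fold changes of 0.33 ± 0.06 (adjusted p = 0.000314) and 0.31 ± 0.09 (adjusted p = 0.0143), and gave 0.12 ± 0.06 (adjusted p = 0.142) and 0.16 ± 0.09 (adjusted p = 0.199) in low glucose. For Mcm7 (chromosome 5, 138164583 to 138172422) the H_C libraries read 12.2, 13.0, 14.7 and 13.5 CPM and the H_O libraries 14.9, 17.1, 16.7 and 17.4 CPM, without overlap. Its call was lost without H_C replicate 1 (adjusted p = 0.0517). The full set of 6 subunits thus passed the test in high glucose and 4 of 6 in low glucose.

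**Figure D3:**
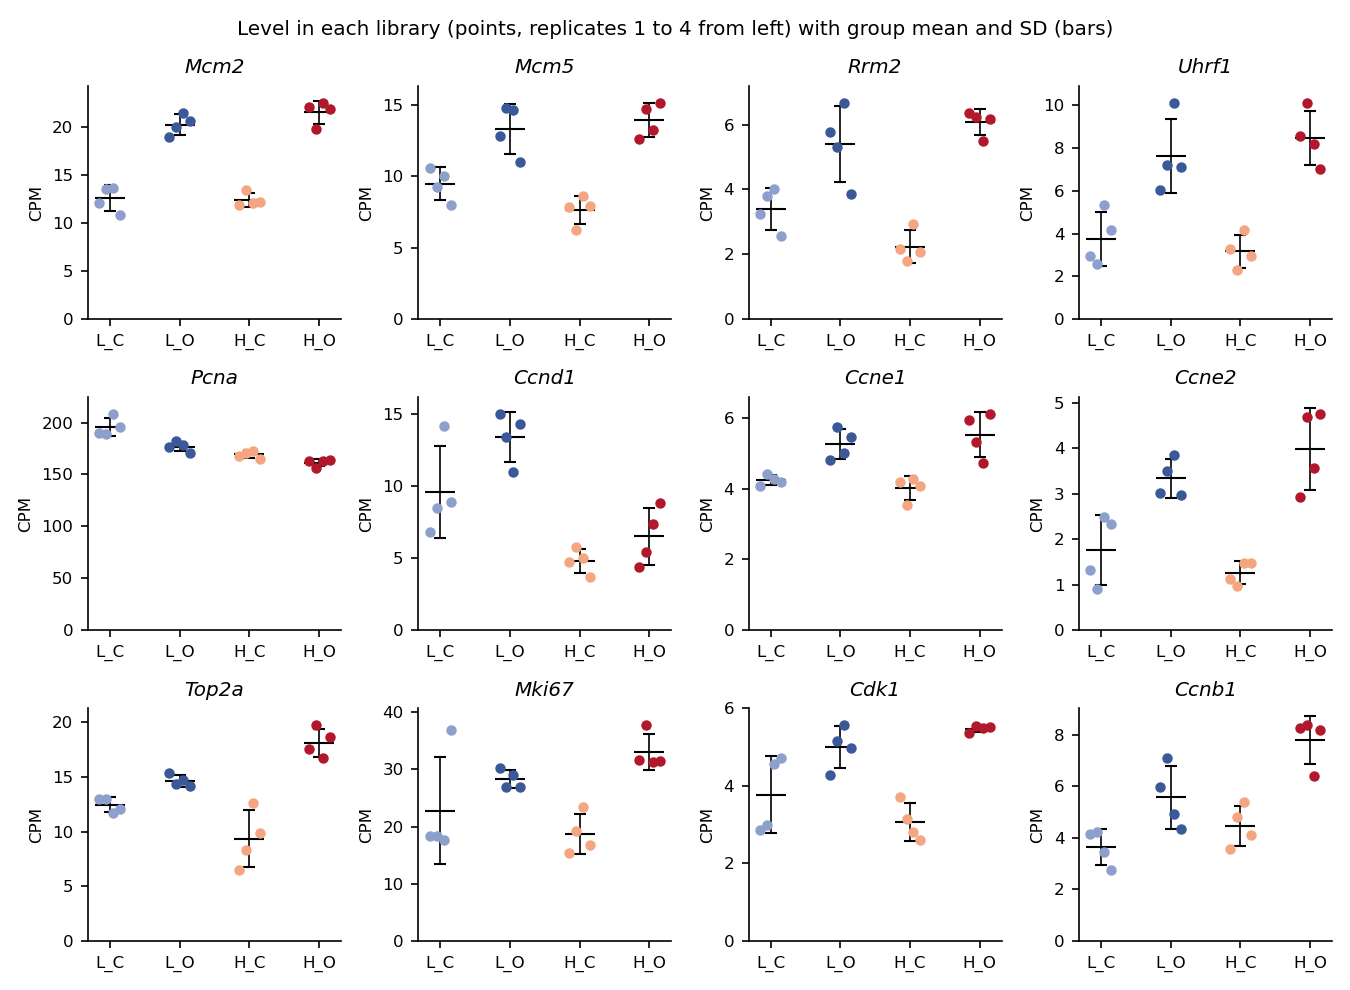
Level in CPM of 12 of the genes by library, 4 libraries in each of L_C, L_O, H_C and H_O, with bars for the mean and SD of each group; each panel has its own axis from 0. Mcm2 and Mcm5 separate with ox-LDL at both glucose levels, the single high L_C point of Mki67 is replicate 4 at 36.8 CPM, and Ccnd1 is lower in both high glucose groups.

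Among genes that load and start the helicase, Cdc6, which brings MCM to the origin, rose only past the threshold in high glucose, with a log2 fold change of 1.32 ± 0.43 (adjusted p = 0.0341) and 0.99 ± 0.43 (adjusted p = 0.101) in low glucose, where it passed only without L_C replicate 4 (1.39, adjusted p = 0.0229). Its levels were low, 0.909 ± 0.554 CPM in H_C and 2.28 ± 0.686 CPM in H_O (SD, n = 4), the libraries overlapped, and the call was lost without replicate 1, 2 or 4 of H_C and 2 or 4 of H_O (adjusted p up to 0.0957). Gins2, a subunit of the GINS complex that activates the helicase, gave 0.90 ± 0.28 in high glucose (adjusted p = 0.0248) and 0.63 ± 0.27 in low glucose (adjusted p = 0.0996), with most of its sequence shared with other transcripts, and its call was lost without replicate 1, 2 or 3 of H_C and 1 of H_O (adjusted p up to 0.0955). Cdt1, the partner of Cdc6, did not follow: its log2 fold changes were −0.15 ± 0.07 (adjusted p = 0.126) and −0.19 ± 0.07 (adjusted p = 0.0648). Prim1, a primase subunit, gave 0.32 ± 0.20 in high glucose (adjusted p = 0.296).

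Enzymes that supply DNA building blocks differed in size of response. Rrm2 (chromosome 12, 24708241 to 24714146), the small subunit of ribonucleotide reductase that is limiting for deoxynucleotides in S phase, read 3.25, 3.79, 4.02 and 2.57 CPM in L_C and 5.77, 5.32, 6.66 and 3.86 CPM in L_O. In high glucose it read 2.17, 1.78, 2.94 and 2.06 CPM in H_C and 6.37, 6.25, 5.51 and 6.18 CPM in H_O. The high glucose groups were far apart and the low glucose groups overlapped at 1 library. The log2 fold change was 1.44 ± 0.19 in high glucose (2.71-fold, adjusted p = 1.8e-05) and 0.67 ± 0.19 in low glucose (1.59-fold, adjusted p = 0.0129), the latter lost without L_O replicate 3 (adjusted p = 0.0554). Rrm1, the large subunit, is present at 34.3 ± 3.28 CPM in H_C and 41.6 ± 3.10 CPM in H_O (SD, n = 4), and rose there by 0.27 ± 0.08 on the log2 scale (adjusted p = 0.017), a call lost without H_O replicate 1 and without H_C replicate 1 or 2 (adjusted p up to 0.0706). Tk1, thymidine kinase, rose by 0.95 ± 0.29 in high glucose (adjusted p = 0.0259), a call lost without replicate 1 or 4 of H_C and 1 or 3 of H_O (adjusted p up to 0.0841), and gave 0.74 ± 0.30 in low glucose (adjusted p = 0.0793). Tyms, thymidylate synthase, gave 0.43 ± 0.21 in high glucose (adjusted p = 0.171).

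Genes that act at and behind the fork went different ways. Uhrf1, which brings DNA methylation to new strands and is described here because of its values, rose from 3.76 ± 1.27 CPM in L_C to 7.62 ± 1.73 CPM in L_O and from 3.16 ± 0.767 CPM in H_C to 8.47 ± 1.27 CPM in H_O (SD, n = 4). Its log2 fold changes were 1.02 ± 0.22 (adjusted p = 0.00222) and 1.42 ± 0.23 (adjusted p = 0.000128), and no libraries overlapped. Pcna (chromosome 2, 132249162 to 132253314), the most abundant of the 43, moved little: its median was 193 CPM in L_C, with libraries from 189 to 208 CPM, and its L_O libraries read 176, 182, 178 and 171 CPM. It fell by 0.15 on the log2 scale (SE 0.04, adjusted p = 0.00903), a call lost with no scaling beyond library totals (adjusted p = 0.255) and when only the 8 libraries compared were fitted. In high glucose its libraries read 168, 171, 173 and 165 CPM in H_C and 163, 156, 163 and 164 CPM in H_O, with a log2 fold change of −0.07 ± 0.04 (adjusted p = 0.249). Fen1, the flap endonuclease that trims Okazaki fragments, rose by 0.33 ± 0.10 in high glucose (adjusted p = 0.0282), although most of its sequence is shared with an overlapping gene and the call was lost without replicate 2, 3 or 4 of H_C and 1 or 4 of H_O (adjusted p up to 0.1). Lig1, the ligase that joins those fragments, gave −0.07 ± 0.08 in low glucose (adjusted p = 0.571) and 0.06 ± 0.07 in high glucose (adjusted p = 0.647).

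Of the 20 mitosis genes, Ccnb1 and Aurkb were higher in low glucose, and these and Cdk1, Top2a and Mki67 were higher in high glucose. By edgeR none was lower in either, with 1 and 0 lower at an unadjusted p under 0.05, beside 2527 and 2165 of the 13527 rows. Ccnb1 (chromosome 13, 100778650 to 100786570), the cyclin that drives entry into mitosis, read 4.16, 4.23, 3.46 and 2.75 CPM in L_C and 5.96, 7.10, 4.92 and 4.33 CPM in L_O. The H_C libraries read 3.57, 4.79, 5.38 and 4.12 CPM and the H_O libraries 8.24, 8.36, 6.41 and 8.17 CPM. The groups were apart at both glucose levels, with log2 fold changes of 0.61 ± 0.18 (adjusted p = 0.0171) and 0.80 ± 0.18 (adjusted p = 0.0027). The call in low glucose was lost without L_O replicate 2 (adjusted p = 0.0754) and with the 8 libraries alone (adjusted p = 0.0556). Aurkb (chromosome 11, 69045647 to 69051664), the kinase of the chromosomal passenger complex that corrects attachment to the spindle, read 1.68, 2.76, 3.02 and 2.65 CPM in L_C and 4.14, 4.85, 4.58 and 4.54 CPM in L_O. It read 3.78, 2.63, 3.23 and 4.18 CPM in H_C and 5.11, 4.91, 5.56 and 5.59 CPM in H_O. Neither pair of groups overlapped, and the log2 fold changes were 0.84 ± 0.18 (adjusted p = 0.00153) and 0.62 ± 0.17 (adjusted p = 0.0149), the latter lost without H_C replicate 2 (adjusted p = 0.0565).

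Cdk1 (chromosome 10, 69335146 to 69352938), the partner of Ccnb1, read 2.85, 2.98, 4.56 and 4.71 CPM in L_C and 4.29, 5.16, 5.56 and 4.98 CPM in L_O, with overlap. In high glucose it read 3.72, 3.15, 2.82 and 2.61 CPM in H_C and 5.35, 5.55, 5.48 and 5.51 CPM in H_O, without overlap. The log2 fold change was 0.40 ± 0.17 (adjusted p = 0.0938) in low glucose and 0.83 ± 0.17 (adjusted p = 0.00153) in high glucose. Top2a (chromosome 11, 98992943 to 99024189), the topoisomerase that untangles sister chromatids, read 13.0, 13.0, 11.7 and 12.1 CPM in L_C and 15.3, 14.3, 14.7 and 14.2 CPM in L_O. Its H_C libraries read 6.53, 8.35, 12.6 and 9.89 CPM and its H_O libraries 17.5, 19.7, 16.7 and 18.6 CPM. The H_C libraries were the most scattered of the 4 groups, yet all lay below H_O, and the log2 fold change was 0.95 ± 0.14 (adjusted p = 4.3e-05), against 0.23 ± 0.14 (adjusted p = 0.236) in low glucose.

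Mki67 (chromosome 7, 135689784 to 135716361), the gene of the proliferation antigen Ki-67, depended on 1 library in low glucose. It read 18.3, 18.4, 17.7 and 36.8 CPM in L_C and 30.2, 27.0, 29.0 and 26.9 CPM in L_O. Replicate 4 lay above all L_O libraries and the other L_C libraries below them, so that the log2 fold change was 0.31 ± 0.19 (adjusted p = 0.255) with replicate 4 and 0.64 (adjusted p = 0.000138) without it. In high glucose Mki67 read 15.3, 19.3, 23.4 and 16.8 CPM in H_C and 31.7, 37.7, 31.2 and 31.5 CPM in H_O. These groups did not overlap, with a log2 fold change of 0.82 ± 0.19 (adjusted p = 0.00369). Without L_C replicate 4 the number of mitosis genes called higher in low glucose was 4 in place of 2, since Cdk1 also passed (0.53, adjusted p = 0.0297), and without L_O replicate 2 it was 1. Over all rows, the numbers called higher in low glucose were then 1891 and 1387, in place of 1623.

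The remaining 15 mitosis genes were not called at either glucose level. In high glucose, log2 fold changes of 0.52 ± 0.21 for Ccna2 (adjusted p = 0.0819), the cyclin of S and G2 phase, 0.62 ± 0.25 for Nusap1 (adjusted p = 0.0841) and 0.48 ± 0.19 for the spindle motor Kif11 (adjusted p = 0.0888) came nearest. Others spread to both sides of 0. Ube2c, which tags cyclin B for destruction, had the lowest value of the 43 in low glucose, −0.48, and 0.22 in high glucose, and Cdc20, an activator of the same ligase, gave −0.33 and 0.63. Bub1, a spindle checkpoint kinase, gave 0.02 and 0.54, and the kinetochore proteins Cenpf −0.26 and −0.18 and Cenpe −0.11 and 0.10. The spindle genes Tpx2 and Aurka gave −0.06 and 0.07, and −0.02 and −0.05. Bub1b, another checkpoint kinase, of 9.97 ± 1.52 CPM in L_C and 7.66 ± 0.725 CPM in L_O (SD, n = 4), had a log2 fold change of −0.38 ± 0.14 (adjusted p = 0.0615) in low glucose, where its libraries did not overlap, and 0.09 in high glucose. In low glucose Bub1b was called lower by DESeq2, without L_C replicate 1 and without H_C replicate 3 (adjusted p down to 0.0348).

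The E-type cyclins, which activate Cdk2 at the start of S phase, moved like the replication genes. Ccne2 (chromosome 4, 11191351 to 11204779) read 1.32, 0.912, 2.49 and 2.34 CPM in L_C and 3.02, 3.51, 3.85 and 2.97 CPM in L_O. It read 1.13, 0.964, 1.48 and 1.48 CPM in H_C and 2.92, 4.70, 3.57 and 4.75 CPM in H_O. Its groups were apart at both glucose levels, and its log2 fold change of 1.65 ± 0.28 in high glucose (3.14-fold, adjusted p = 0.00025) was the largest of the 43. In low glucose it was 0.92 ± 0.28 (1.89-fold, adjusted p = 0.019), which was lost without replicate 1 or 2 of L_C and 3 of L_O (adjusted p up to 0.0577). Ccne1 (chromosome 7, 38097984 to 38107534) read 4.07, 4.42, 4.26 and 4.19 CPM in L_C and 4.81, 5.74, 5.01 and 5.47 CPM in L_O. It read 4.18, 3.53, 4.28 and 4.06 CPM in H_C and 5.95, 5.33, 4.72 and 6.10 CPM in H_O. No libraries overlapped, and the log2 fold change was 0.31 ± 0.12 (adjusted p = 0.068) and 0.46 ± 0.12 (adjusted p = 0.00918). For the 2 other genes no call was made: Stmn1, which destabilises microtubules, gave 0.37 ± 0.16 (adjusted p = 0.0935) and 0.37 ± 0.15 (adjusted p = 0.0989), passing without L_C replicate 2 (0.48, adjusted p = 0.0424) and without H_O replicate 1 (0.50, adjusted p = 0.0178), and Hmgb2, a chromatin protein of dividing cells, 0.01 ± 0.15 (adjusted p = 0.973) and 0.19 ± 0.15 (adjusted p = 0.453).

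**Figure D4:**
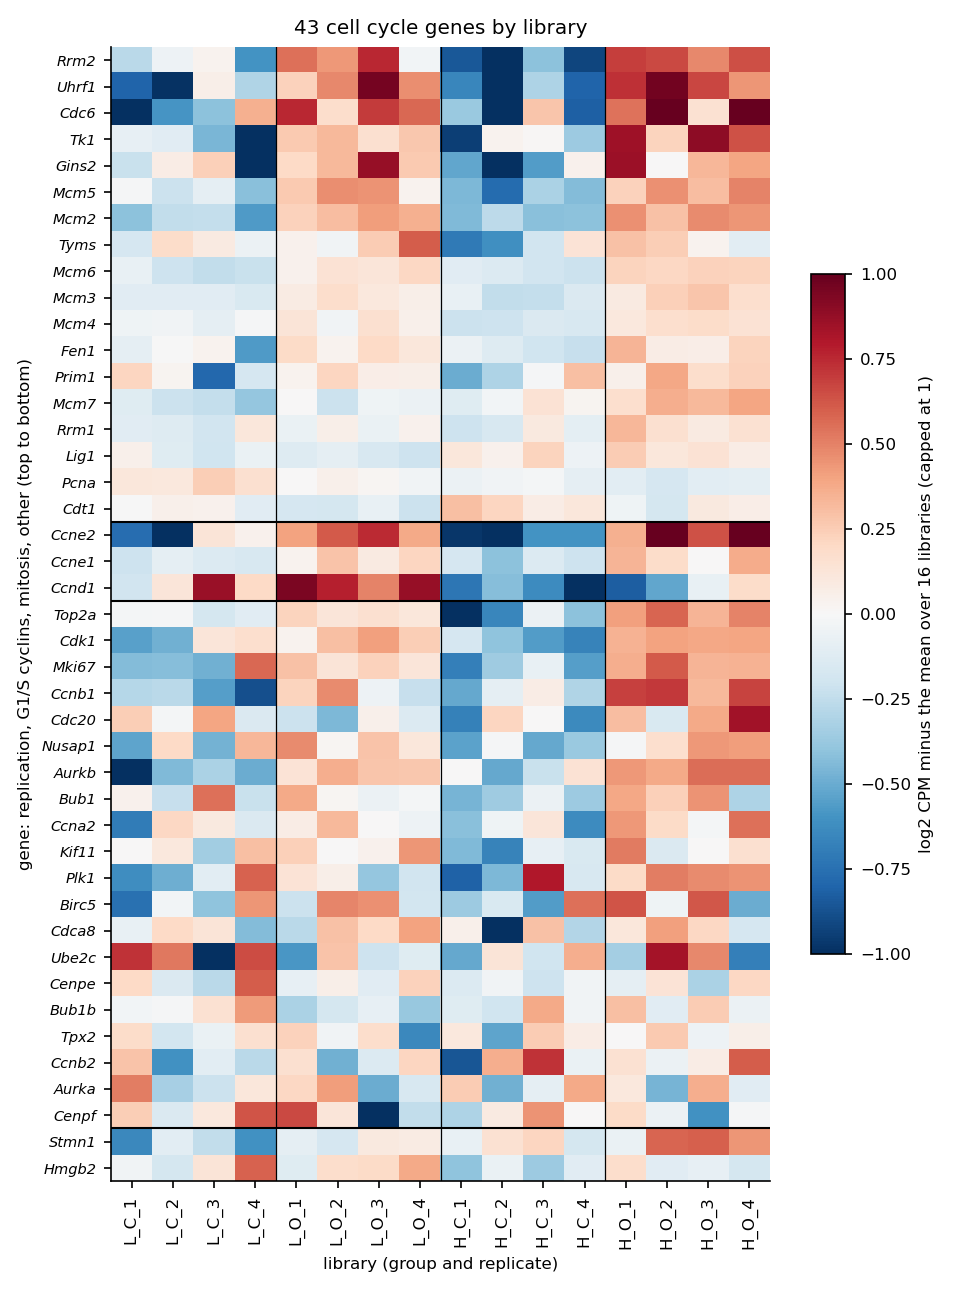
Difference of each gene's log2 CPM from its own mean over the 16 libraries, genes in rows by class and libraries in columns by group. Many replication rows lie above their mean in all 8 ox-LDL libraries, but Mcm4, Mcm7, Rrm1, Rrm2, Pcna, Tyms, Cdt1 and Lig1 do not. Mitosis rows are more mixed, with L_C replicate 4 the highest of its group in 9 of 20.

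Set side by side in high glucose, more of the replication genes passed the test, while the mitosis genes shifted by a similar median with a wider error. Higher calls numbered 6 of 18 replication and 2 of 20 mitosis genes in low glucose, and 13 of 18 and 5 of 20 in high glucose, beside 12% and 10.4% of all rows. The 2 mitosis genes (10%) are thus near the share of all rows. The median log2 fold change was 0.25 for replication and 0.14 for mitosis genes in low glucose, and 0.38 and 0.46 in high glucose. A fitted change above 1.2-fold, a size chosen after the values were seen and without regard to the test, was found in 9 of 18 replication and 6 of 20 mitosis genes in low glucose, beside 16.8% of all rows, and in 15 of 18 and 13 of 20 in high glucose, beside 16.9% of all rows. The median standard error was 0.10 for replication and 0.22 for mitosis genes in both comparisons, so the counts of calls in the classes rest on different precision, and the difference between the classes was not tested. Without H_C replicate 1, only 8 replication genes were called higher in high glucose, and over all rows 1210 in place of 1406. Summed over the 17 replication genes other than Pcna, levels were 257, 255, 254 and 237 CPM in L_C and 289, 296, 309.7 and 291 CPM in L_O. They were 251, 242, 256 and 249.7 CPM in H_C and 331, 317, 323 and 325 CPM in H_O. Mitosis genes summed to 89.0, 88.6, 87.9 and 116 CPM in L_C and to 109.8, 109, 107 and 101 CPM in L_O. They summed to 75.6, 77.7, 102 and 83.5 CPM in H_C and to 123, 129, 118 and 122 CPM in H_O. With Pcna included, the replication sums were 446, 444, 461.8 and 434 CPM in L_C and 464, 477, 488 and 462.6 CPM in L_O. In high glucose they were then 419, 413, 430 and 415 CPM in H_C and 494, 474, 486 and 489 CPM in H_O. The replication sums did not overlap at either glucose level, with or without Pcna, although with Pcna L_C and L_O nearly touched. The mitosis sums overlapped in low glucose through L_C replicate 4 alone.

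**Figure D5:**
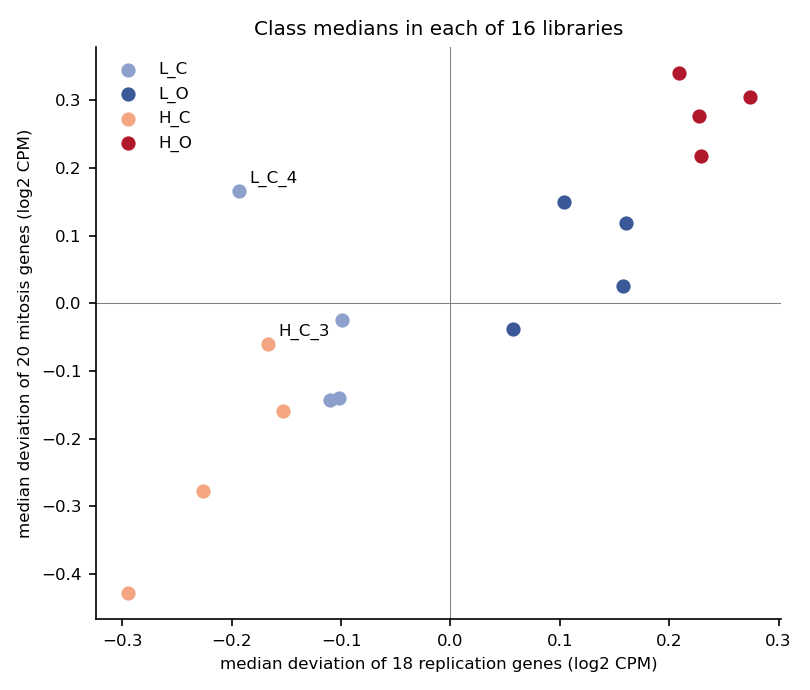
Median over the genes of a class of each gene's deviation in log2 CPM from its mean over the 16 libraries, 1 point per library, for replication and mitosis genes. H_O is highest in both classes (0.21 to 0.27 and 0.22 to 0.34), and in L_C replicate 4 replication genes lie lowest of their group (−0.19) and mitosis genes highest (0.17).

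Comparing H_C with L_C asked what high glucose changed without ox-LDL. None of the 43 was higher by edgeR's test, beside 5.02% of all rows, and DESeq2 and limma-voom called none. At an unadjusted p under 0.05, 5 of the 43 lay higher, beside 1589 of the 13527 rows. Stmn1 (0.42 ± 0.16, adjusted p = 0.0863) was called higher without L_C replicate 2 (0.53) and without H_O replicate 1 (0.42). Rrm2, Pcna and Ccnd1 were lower, 3 of 43 (6.98%) beside 7.75% of all rows. Ccnd1 (chromosome 7, 144929931 to 144939925), the D-type cyclin that couples growth factor signals to Cdk4 and Cdk6, read 6.83, 8.46, 14.2 and 8.93 CPM in L_C and 4.70, 5.78, 5.02 and 3.71 CPM in H_C. With ox-LDL it read 15.0, 13.4, 11 and 14.3 CPM in L_O and 4.37, 5.41, 7.39 and 8.86 CPM in H_O. All high glucose libraries lay below the low glucose libraries of the same ox-LDL state, with log2 fold changes of −1.0 ± 0.23 (0.50-fold, adjusted p = 0.00674) and −1.04 ± 0.22 (0.486-fold, adjusted p = 0.0083). Its ox-LDL differences of 0.48 ± 0.22 (adjusted p = 0.123) and 0.44 ± 0.23 (adjusted p = 0.201) did not pass the test, the former passing only without L_C replicate 3 (0.73, adjusted p = 0.0143) and by limma-voom (0.52, adjusted p = 0.0496). Pcna fell by 0.21 on the log2 scale (SE 0.04, adjusted p = 0.00185), without overlap between L_C and H_C. Mcm5 (−0.31, adjusted p = 0.113) was called lower only without L_C replicate 4 (adjusted p = 0.0404). Hmgb2 (−0.39, adjusted p = 0.108) was called lower only without L_C replicate 2 (adjusted p = 0.0495). Rrm2 fell by 0.60 (SE 0.19, adjusted p = 0.0483), with overlap, and this call was lost in 17 of 25 alternatives, among them the removal of any library other than L_C replicate 4, L_O replicates 3 and 4 and H_C replicate 3 (adjusted p up to 0.132). These comparisons share the L_C or H_C libraries with the ox-LDL comparisons above.

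In cells with ox-LDL, H_O against L_O, 2 of 43 genes were higher beside 2.71% of all rows and 1, Ccnd1, was lower beside 3.39%. Mcm7 stood at 13.3, 11.4, 12.9 and 12.8 CPM in L_O against the 14.9 to 17.4 CPM of H_O, with a log2 fold change of 0.39 ± 0.09 (adjusted p = 0.00961). Lig1 rose by 0.29 ± 0.08 (adjusted p = 0.0252), from 16.4 ± 0.538 to 20.1 ± 1.10 CPM (SD, n = 4), and the call was lost without replicate 1, 3 or 4 of L_O and 1 or 3 of H_O (adjusted p up to 0.0861). Top2a gave −0.41 ± 0.14 between H_C and L_C (adjusted p = 0.0583), which passed without H_C replicate 3 (−0.58, adjusted p = 0.004) and also by DESeq2 and limma-voom, and 0.31 ± 0.13 between H_O and L_O (adjusted p = 0.208). The latter was called higher by edgeR with the 8 libraries alone (adjusted p = 0.0207).

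Whether the ox-LDL response itself depended on glucose was asked by the interaction, the log2 fold change in high glucose minus that in low glucose. It was positive for 38 of the 43 genes, 17 of 18 replication and 17 of 20 mitosis genes, against 7031 of the 13527 rows. No gene of the 43 passed the adjusted threshold in either direction by edgeR, and over all rows 0.00739% passed in each direction, which is 1 row each. At an unadjusted p under 0.05, 6 genes were positive and 0 negative, beside 5.39% of all rows positive. These were Mcm4 (0.21 ± 0.08), Mcm5 (0.38 ± 0.17), Rrm2 (0.77 ± 0.27), Top2a (0.72 ± 0.19), Bub1b (0.47 ± 0.20) and Cdc20 (0.96 ± 0.42), of which Top2a had the smallest adjusted p, 0.199. DESeq2 called Top2a alone of the 43 (adjusted p = 0.0469), and over all rows called 78 positive and 17 negative. The wider set of calls in high glucose is therefore not shown gene by gene to be a larger response.

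Other genes of the pathway were listed by role, and their counts stand beside the same shares of all rows called higher with ox-LDL, 12% in low and 10.4% in high glucose, and called lower, 13.8% and 11.5%. At an unadjusted p under 0.05, 2381 and 2138 of the 13527 rows lay higher, and 2527 and 2165 lay lower. Of 40 further replication genes, 9 were higher and 1 lower with ox-LDL in low glucose, and 15 were higher and 0 lower in high glucose (1 lower at an unadjusted p under 0.05). Cdc7, the kinase that fires origins, rose by 0.82 ± 0.17 (adjusted p = 0.00108) and 0.53 ± 0.16 (adjusted p = 0.0254), and Gins1, a partner of Gins2, gave 0.14 ± 0.17 (adjusted p = 0.59) and 1.18 ± 0.17 (adjusted p = 4.84e-05). Timeless, of the fork protection complex, rose by 0.78 ± 0.17 (adjusted p = 0.00182) and 0.55 ± 0.17 (adjusted p = 0.0243). The single lower gene, Rfc5 of the clamp loader that places Pcna on DNA, fell by 0.41 (SE 0.09, adjusted p = 0.00133) in low glucose and gave −0.06 ± 0.09 (adjusted p = 0.676) in high glucose. Of 18 genes of DNA repair and the S phase checkpoint, 4 were higher in low glucose and 8 in high glucose, and 0 were lower, also at an unadjusted p under 0.05. Clspn, which carries the checkpoint signal to Chek1, rose by 0.66 ± 0.17 (adjusted p = 0.00834) and 1.28 ± 0.17 (adjusted p = 2.37e-05), and Brca1 of homologous recombination gave 0.43 ± 0.21 (adjusted p = 0.155) and 1.03 ± 0.21 (adjusted p = 0.0015).

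Further mitosis genes, from spindle, kinetochore and condensin proteins, were listed in the same way. Of 43 tested, 2 were higher and 2 lower with ox-LDL in low glucose, and 9 were higher and 0 lower in high glucose (0 lower also at an unadjusted p under 0.05). The 2 higher genes (4.65%) in low glucose lie below the 12% of all rows. Ncaph, a condensin subunit that compacts chromosomes, was higher in all 4 pairwise comparisons, by 0.68 ± 0.14 (adjusted p = 0.00158) and 0.69 ± 0.14 (adjusted p = 0.00126) with ox-LDL and by 0.58 ± 0.14 (adjusted p = 0.0116) and 0.60 ± 0.14 (adjusted p = 0.0148) with high glucose. Racgap1, needed to split the cell after mitosis, gave 0.02 ± 0.17 (adjusted p = 0.961) and 0.65 ± 0.17 (adjusted p = 0.00857) with ox-LDL. Cenpa, the centromere histone, fell by 0.69 (SE 0.18, adjusted p = 0.00863) in low glucose and gave −0.34 ± 0.18 (adjusted p = 0.225) in high glucose.

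Regulators upstream of these genes were called in both directions. Of 19 E2F and Rb family regulators, 4 were higher and 1 lower with ox-LDL in low glucose, and 5 were higher and 2 lower in high glucose, beside the shares of all rows given above. E2f1, an activator of replication genes, rose by 0.33 ± 0.09 (adjusted p = 0.00868) and 0.52 ± 0.09 (adjusted p = 0.000233). E2f2, another activator, rose with either treatment, from 10.9 CPM on average in L_C to 19.6 CPM in L_O, 18.2 CPM in H_C and 31.8 CPM in H_O, with log2 fold changes between 0.69 and 0.85 in the 4 pairwise comparisons. E2f6, a repressor of the same family, also rose with ox-LDL, by 0.41 ± 0.07 (adjusted p = 0.000124) and 0.29 ± 0.07 (adjusted p = 0.00375). Rbl1, the pocket protein p107 that holds E2F genes down, fell by 0.37 (SE 0.06, adjusted p = 8.26e-05) and by 0.22 (SE 0.06, adjusted p = 0.0105). Of 13 other kinases and cyclins, 3 were higher in low glucose and 2 higher and 1 lower in high glucose, with Ccnd3, a D-type cyclin, up by 0.29 ± 0.09 (adjusted p = 0.0227) and 0.55 ± 0.09 (adjusted p = 0.000141) where Ccnd1 was not called. Cdk2, the partner of the E-type cyclins, rose by 0.26 ± 0.08 (adjusted p = 0.0273) and 0.33 ± 0.08 (adjusted p = 0.00651). The single lower gene, Cdk6, gave −0.13 ± 0.07 (adjusted p = 0.216) in low glucose and fell by 0.21 (SE 0.07, adjusted p = 0.0381) in high glucose.

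Of 7 inhibitors of cyclin-dependent kinases, 0 were higher with ox-LDL, and 1 was lower in low glucose and 2 in high glucose, a list too short to be read against the 12% and 10.4% of rows higher and 13.8% and 11.5% lower. By edgeR, Cdkn1b, which encodes p27, fell by 0.42 (SE 0.08, adjusted p = 0.000374) and by 0.21 (SE 0.07, adjusted p = 0.0497), and Cdkn1c, which encodes p57, gave −0.17 ± 0.15 (adjusted p = 0.444) and fell by 0.62 (SE 0.15, adjusted p = 0.00475). Counting unadjusted p under 0.05 also gave 0 higher. Cdkn1a, which encodes p21, followed glucose, from 56.1 CPM in L_C to 35.2 CPM in H_C (log2 fold change −0.67 ± 0.08, adjusted p = 2.05e-05) and from 57.9 CPM in L_O to 37.8 CPM in H_O (−0.61 ± 0.08, adjusted p = 0.000106), and gave 0.05 ± 0.08 (adjusted p = 0.716) and 0.10 ± 0.08 (adjusted p = 0.401) with ox-LDL. Of 12 p53 targets and quiescence genes, 2 (Sesn2 and Bax) were higher and 5 lower with ox-LDL in low glucose, and 0 higher (1 at an unadjusted p under 0.05) and 3 lower in high glucose. Btg2, an antiproliferative gene, fell with ox-LDL by 0.44 (SE 0.10, adjusted p = 0.00278) and by 0.30 (SE 0.10, adjusted p = 0.0305), and rose with high glucose by 0.64 ± 0.10 (adjusted p = 0.000264) and 0.78 ± 0.10 (adjusted p = 0.000111).

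Some genes of macrophage growth control, each from a longer list, are given by their own values. Myc, which promotes growth and entry into the cycle, rose by 0.78 ± 0.17 (adjusted p = 0.00182) and 1.17 ± 0.17 (adjusted p = 5.72e-05) with ox-LDL and fell by 0.83 (SE 0.17, adjusted p = 0.00365) between H_C and L_C. Csf1r, the receptor for CSF1, fell by 0.49 (SE 0.04, adjusted p = 7.96e-08) and by 0.46 (SE 0.04, adjusted p = 1.81e-07), and Csf2rb, a receptor subunit for GM-CSF, fell by 0.87 (SE 0.06, adjusted p = 4.21e-09) and by 0.72 (SE 0.06, adjusted p = 4.66e-08). The IL-4 receptor gene Il4ra rose by 0.47 ± 0.05 (adjusted p = 1.09e-06) and 0.52 ± 0.05 (adjusted p = 3.17e-07), and Maf, whose product restrains macrophage self-renewal, rose by 0.94 ± 0.08 (adjusted p = 6.57e-08) and 0.81 ± 0.08 (adjusted p = 4.77e-07).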

How the data were processed

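RNA of 16 libraries was sequenced, with 4 libraries in each of 4 groups taken from the labels. The authors deposited read counts by gene in 1 table, treated here as raw counts because the values are whole numbers with library totals from 32596640 to 41712885. The table held 15871 rows, 1594 of them unannotated regions. HISAT2, DESeq2 and the build mm10 are named per the submitters' processing notes, and the counting tool, annotation, strand setting and versions are not given in the sources used here. Counting without strand would mix overlapping genes, and the handling of reads that match several genes is not known.

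Counts were fitted with edgeR 4.0.16 in R 4.3.3 (quasi-likelihood F test, two-sided, TMM scaling, filterByExpr by group, a mean for each group, 12 residual degrees of freedom), and the Benjamini-Hochberg adjustment covered the 13527 rows tested, with a threshold of 0.05. Standard errors are the log2 fold change divided by the square root of F. Log2 CPM used a prior count of 2. The 43 genes and all lists were chosen with earlier results of these data known. Values per library are given for up to 4 genes of each role class with the smallest adjusted p in the ox-LDL comparisons and up to 2 in the glucose comparisons, and for Mki67, Top2a, Mcm2, Pcna and Ccnd1; from each further list up to 4 genes were drawn by smallest adjusted p, and Cdkn1a, E2f1 and Myc always, and the text prints a part of these. Marker genes with no row in the table were not analysed here. Coordinates and exon lengths are from GENCODE vM21 on GRCm38, the assembly that mm10 names, and promoters from RefSeq on GRCm38.p6. The fit was tested on simulated counts. Alternatives were RLE and upper-quartile scaling, no scaling, no filter, a filter of 1 CPM in 4 libraries, DESeq2 1.42.0, limma-voom (limma 3.58.1), a replicate block, the 8 libraries alone and each library left out.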

Additional observations from a re-analysis of the deposited data

Results flagged for a closer look

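In each group of 4 libraries, the 43 genes were searched for a library far from the other 3 relative to the whole range, and 7 of 172 sets had one; chance gives such a library in about 1 in 20 sets. Mki67 stood at 36.8 CPM in L_C replicate 4, above 17.7 to 18.4 CPM in the others, and Mcm3 at 35.3 CPM in the same library, below 36.4 CPM in each of the others. Mki67 also stood high in H_O replicate 2, at 37.7 CPM against 31.2 to 31.7 CPM. Gins2 was high in L_O replicate 3, at 18.6 CPM against 11.6 to 12.7 CPM, and Bub1 in L_O replicate 1, at 2.18 CPM against 1.59 to 1.68 CPM. Ccnb1 was low in H_O replicate 3, at 6.41 CPM against 8.17 to 8.36 CPM, and Ube2c in L_C replicate 3, at 0.355 CPM against 1.44 to 1.65 CPM.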

How the results depend on the processing

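No gene of the 43 changed direction while called under any alternative run. Of the calls with ox-LDL, 6 of 10 in low glucose and 13 of 20 in high glucose passed under all alternatives. With no scaling beyond library totals, 15 genes were higher and 0 lower in low glucose, and 8 mitosis genes were higher in high glucose, while the rows called higher over the whole table numbered 2857 and 2176 in place of 1623 and 1406. With the 8 libraries alone, 1 mitosis gene was higher and 0 genes were lower in low glucose, and 2 genes were lower in H_O against L_O. DESeq2 and limma-voom called Top2a lower in H_C against L_C. DESeq2 gave 2 lower genes (Pcna and Bub1b) in low glucose, 2 lower genes in H_O against L_O and 1 positive interaction. Over all rows it called 2043, 664 and 78 in these directions, in place of 1867, 459 and 1. The filter of 1 CPM gave 1 lower gene in high glucose, beside 1683 of 11758 rows, in place of 1556 of 13527. The cause of these shifts was not tested. Leaving out 1 library at a time gave 1 to 4 higher mitosis genes and 1 to 2 lower genes in low glucose. Over the whole table, 1342 to 1891 rows were then higher and 1627 to 1990 lower. In high glucose it gave 8 to 13 higher replication genes and 0 to 1 lower genes, with 1146 to 1964 rows higher and 1320 to 2001 lower. In H_C against L_C it gave 0 to 1 higher genes, with 463 to 922 rows higher, and the lower calls changed as given above. In H_O against L_O it gave 1 to 2 higher and 1 to 2 lower genes, with 240 to 749 rows higher and 286 to 1014 lower. Equal replicate numbers did not pair the libraries: their deviations correlated from -0.165 to 0.104 over 24 pairs, and 3 of 16 libraries correlated best with their own number. With the replicate number as a block, 10 genes were higher in low glucose, 20 in high glucose and 1, Stmn1, in H_C against L_C, and the numbers of other calls among the 43 stayed as they were. Over all rows, 1595, 1348 and 654 were then higher in these 3 comparisons. Of the 20 mitosis genes, 18 lay under 10 CPM, where counting error is larger.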
